A study of Mus musculus with 13 samples.

Results

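The 10 genes described here are the immediate early and stress transcription factors and their companions Fos, Fosb, Jun, Junb, Atf3, Egr1, Myc, Ier2, Ier3 and Klf6. They were chosen by name, as the rows of the gene count table whose Ensembl identifiers carry these symbols. All 10 were found among the 22048 genes of the table, and all 10 were among the 13831 genes with enough reads to be tested. The data are RNA-seq counts of whole mouse liver from a study whose title concerns hepatic stellate cells, neurotrophin-3 and the proliferation of hepatocytes. Stellate cells wrap the sinusoids, the capillaries of the liver, and store vitamin A, and partial hepatectomy removes some of the lobes so that the remaining tissue regrows. There were 6 control livers (males 1, 2 and 6, females 3, 4 and 5), with stellate cells in place and no surgery named in the labels. A further 4 livers were labelled as depleted of stellate cells (male 3, females 1, 2 and 4). The last 3 livers kept their stellate cells and were collected 72 h after surgery (males 1 and 2, female 3). Strain, genotype, age, the agent used for the depletion, the time since depletion and any sham operation are not given in the sources used here.

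Immediate early genes are transcribed within minutes of a growth factor, cytokine, mechanical or stress signal, from regulators already present in the cell and without new protein synthesis. FOS and JUN proteins join as dimers to form AP-1, which binds DNA together with relatives such as ATF3, while EGR1 and KLF6 bind GC-rich DNA through zinc fingers and MYC binds E-boxes with its partner MAX. In liver, several of these genes are known for a brief induction after partial hepatectomy as hepatocytes leave quiescence, and the same genes respond readily in immune cells.

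Library totals ran from 35360991 to 51008737 reads, so 3 reads corresponded to 0.0588 to 0.0848 CPM (reads scaled to library size, with TMM factors for all levels below). Neither a batch nor a date of sequencing is named in the labels. Lrat, the stellate cell enzyme that makes retinyl esters, was checked against the depletion label, and stood at 7.77 to 67.4 CPM in controls and 0.134 to 2.54 CPM in depleted livers, the highest in depleted replicate 4. Reln, which encodes the matrix protein reelin and also marks stellate cells, stood at 31.0 to 95.7 and 0.279 to 3.19 CPM. Summed CPM of 12 stellate cell markers ran over 311 to 798 for controls, 9.38 to 62.0 for depleted and 323 to 630 for hepatectomised livers. Depleted livers carried far more RNA of immune cells: a sum of 12 neutrophil markers ran over 0.780 to 5.12 CPM for controls, 195 to 425 for depleted and 20.4 to 35.5 for hepatectomised livers. Control replicate 6 stood apart from the other 5 controls, with a macrophage and monocyte marker sum of 91.3 CPM against 484 to 683 and an endothelial sum of 113 CPM against 362 to 526. The hepatectomised livers 1 to 3 were spread, with macrophage and monocyte sums of 928, 129 and 361 CPM and endothelial sums of 335, 111 and 271 CPM, both lowest in replicate 2. For the 10 genes, a call that ends without control replicate 6, hepatectomy replicate 2 or depleted replicate 4 is named as such.

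The start sites of 7 of the 10 genes could be matched in RefSeq (build GRCm38.p6): Fos, Fosb, Jun, Junb, Atf3, Ier3 and Klf6, while Egr1, Myc and Ier2 are named only. The 100 bases upstream of the start are printed for 6 of them, 5′ to 3′ on the gene's strand, because CREB/ATF-type letters set Fos, Fosb, Jun and Atf3 apart from Junb and Klf6 in this window. Capitals mark TNACNTCA (a cAMP response element-like octamer), the shorter TGACG, the TATA box TATAAA and CCAAT, each searched on both strands. These patterns were chosen after the sequences were seen.
Fos, chr12:85473790-85473889, plus strand: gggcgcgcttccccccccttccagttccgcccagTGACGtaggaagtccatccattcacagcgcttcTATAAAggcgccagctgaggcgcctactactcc
Fosb, chr7:19310046-19310145, minus strand: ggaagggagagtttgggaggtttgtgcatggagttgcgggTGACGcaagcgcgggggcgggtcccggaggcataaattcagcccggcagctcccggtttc
Jun, chr4:95052223-95052322, minus strand: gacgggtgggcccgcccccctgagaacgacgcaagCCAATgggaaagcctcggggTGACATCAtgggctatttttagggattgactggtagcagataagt
Atf3, chr1:191183334-191183433, minus strand: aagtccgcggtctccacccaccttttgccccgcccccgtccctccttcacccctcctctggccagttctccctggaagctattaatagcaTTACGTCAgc
Junb, chr8:84978749-84978848, minus strand: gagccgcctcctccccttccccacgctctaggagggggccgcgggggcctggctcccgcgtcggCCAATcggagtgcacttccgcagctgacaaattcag
Klf6, chr13:5861389-5861488, plus strand: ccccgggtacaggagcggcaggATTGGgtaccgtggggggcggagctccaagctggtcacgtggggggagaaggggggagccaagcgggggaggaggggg

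The octamer was found in Jun, from base 45 to base 38 before the start, and in Atf3, from base 10 to base 3, where it overlaps a TGACG on the other strand. Of the 32851 RefSeq start windows of the same length, 7.55% hold the octamer. TGACG was found in Fos at bases 66 to 62, in Fosb at bases 60 to 56 and in Atf3, and 10.5% of all windows hold it. Fos alone among the 7 had TATAAA, which 5.56% of windows hold, and CCAAT was found in Jun, Junb and Klf6 and in 18.9% of windows. The GC box GGGCGG lay in 6 of the 7, all but Junb, and in 24.7% of windows, and the E-box CACGTG lay in Klf6 and in 3.17% of windows. Neither the AP-1 letters TGANTCA (2.73% of windows) nor the CArG box bound by serum response factor (0.615% of windows) occurred in these 7 windows, which says only that the letters are not in this stretch.

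In stellate cell-depleted livers, 8 of the 10 genes rose against control and no fold change of the 10 was below 0 (edgeR, adjusted p under 0.05 over all tested genes). Of all genes tested, 33.9% were called in this comparison, and 18.9% of all genes tested were called higher and 15.0% lower. The rises ran from 1.5-fold for Ier2 to 7.74-fold for Atf3. At 72 h after hepatectomy, 6 of the 10 rose and again no value was below 0, against 8.42% of all genes called (6.06% of all genes higher and 2.36% lower). The median log2 fold change of the 10 genes was 1.82 in depleted and 2.20 in hepatectomised livers, beside medians of -0.03 and -0.02 over all genes. Both comparisons share the 6 control livers. Scaling by library size alone, in place of TMM, moved the median of all genes after hepatectomy to -0.24 and the calls there from 838 higher and 326 lower to 626 and 1566, and the members' median from 2.20 to 1.98. With depletion the same scaling gave 2884 higher and 1471 lower calls in place of 2614 and 2078, and a members' median of 1.97. In whole tissue, a change in the number of cells of a type and a change in RNA per cell cannot be told apart.

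**Figure D1:**
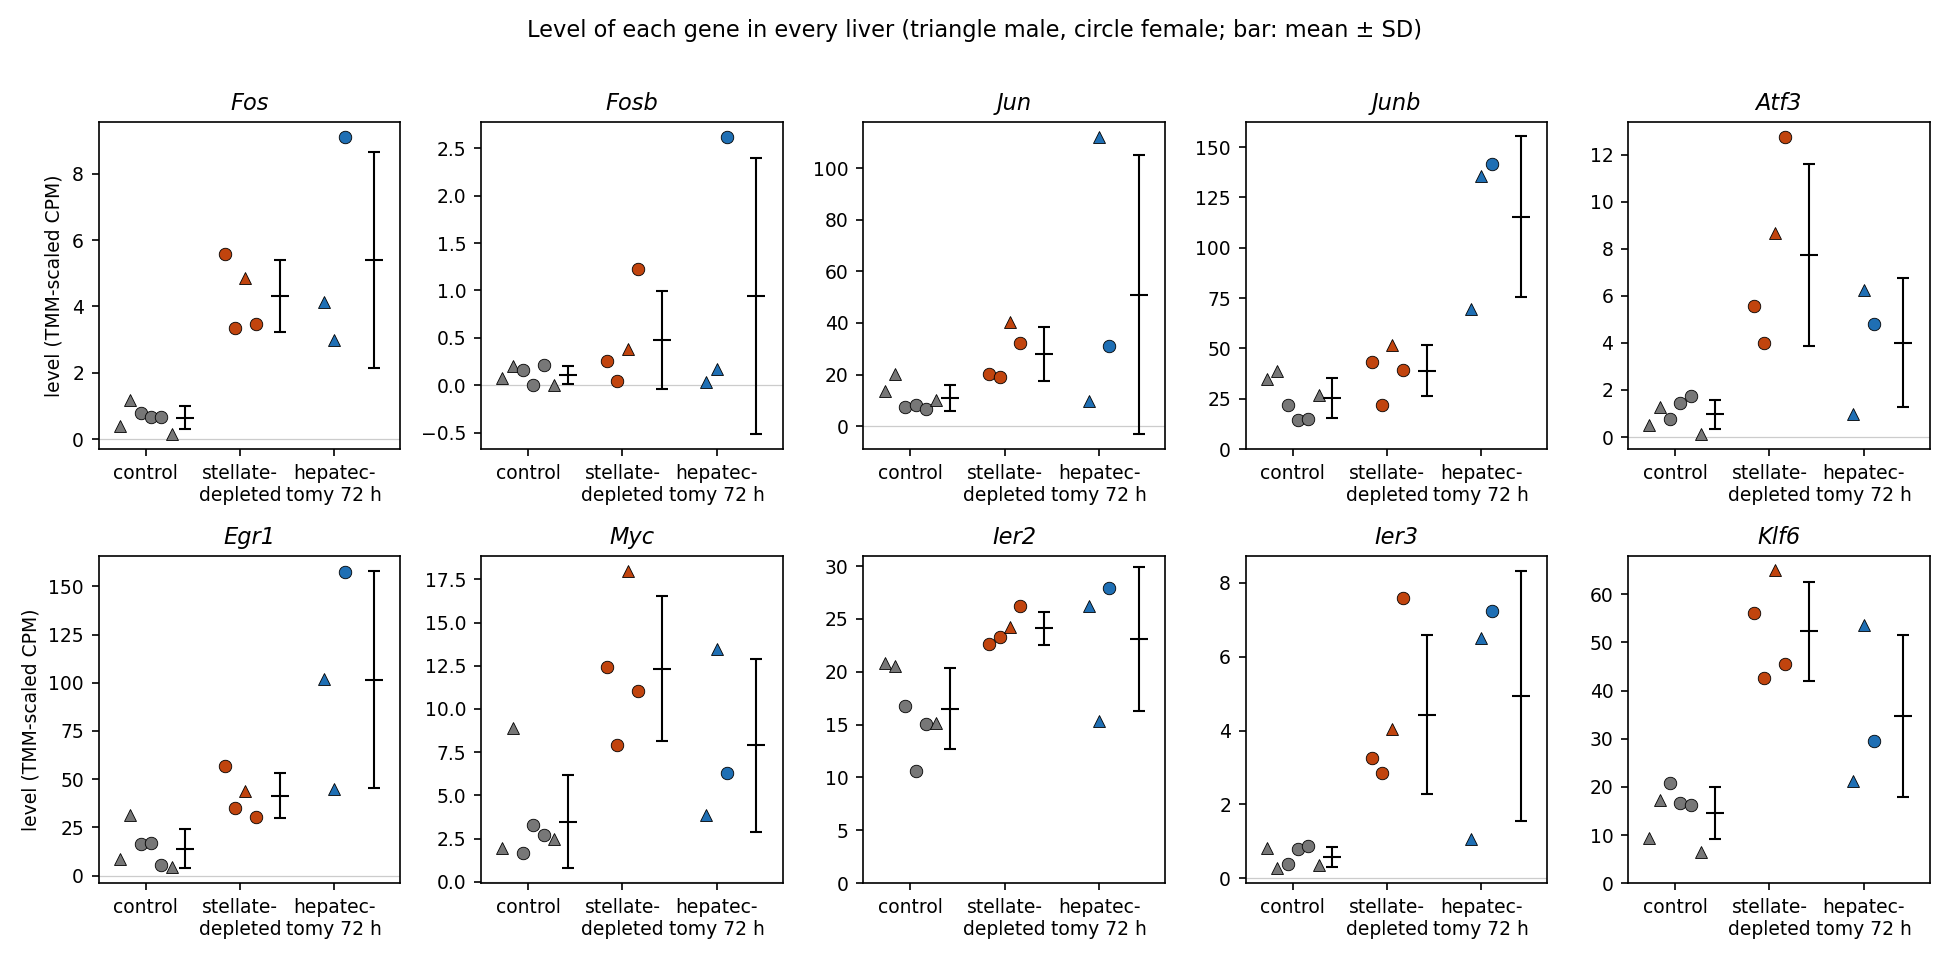
Level of each of the 10 genes in every liver, in TMM-scaled CPM on a linear axis per gene, with triangles for males, circles for females and bars for the group mean ± SD. Fos, Atf3, Ier2, Ier3 and Klf6 are higher in all 4 depleted livers than in any control, and Junb after hepatectomy lies above every other liver.

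Fos, whose protein pairs with JUN proteins in AP-1, lies at chr12:85473890-85477273 on the plus strand. Its level in the 6 controls was 0.150 CPM at the lowest, 0.676 at the median and 1.19 at the highest. The depleted livers 1 to 4 held 5.57, 3.36, 4.86 and 3.48 CPM, and the hepatectomised livers 1 to 3 held 4.14, 2.98 and 9.10 CPM. Every depleted and every hepatectomised liver was therefore above every control, and control replicate 6, at 5 reads, was the lowest. Fos rose by 2.66 ± 0.44 (log2 fold change ± SE, adjusted p = 0.000533) with depletion, a 6.32-fold rise, and by 3.05 ± 0.46 (adjusted p = 0.00289) after hepatectomy, an 8.30-fold rise. Both rises remained past the threshold under every alternative run, including those without control replicate 6, depleted replicate 4 or hepatectomy replicate 2.

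Fosb (chr7:19302721-19310045, minus strand) encodes another FOS family partner of JUN and was the scarcest of the 10. Controls ran from 0, in replicates 4 and 6, through a median of 0.123 to 0.211 CPM. Depleted livers held 0.257, 0.0448, 0.384 and 1.23 CPM and hepatectomised livers 0.0294, 0.168 and 2.62 CPM. The highest values stood in 1 liver of each group, depleted replicate 4 (55 reads) and hepatectomy replicate 3 (105 reads), and both groups overlapped the controls. Fosb did not pass the test, at 1.81 ± 1.10 (adjusted p = 0.231) with depletion and 2.64 ± 1.18 (adjusted p = 0.191) after hepatectomy, and without hepatectomy replicate 3 the latter value was 0.07. The depletion value was 1.16 without depleted replicate 4 and 1.17 without depleted replicate 3.

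Jun (chr4:95049034-95052222, minus strand) encodes the central AP-1 subunit. A stretch of 232 bases of its counted exon is overlapped by the antisense gene Junos, and as the strand setting of the counting is not given in the sources used here, some Jun reads may belong to Junos. Control levels were 6.65 CPM at the lowest, 9.27 at the median and 20.0 at the highest. Depleted livers held 20.0, 18.9, 40.6 and 32.3 CPM, and hepatectomised livers 9.55, 112 and 31.1 CPM. Depleted replicates 3 and 4 and hepatectomy replicates 2 and 3 exceeded all controls, while depleted replicates 1 and 2 lay beside control replicate 2 and hepatectomy replicate 1 lay at the control median. Jun rose by 1.6 ± 0.48 (adjusted p = 0.0213) with depletion and by 2.06 ± 0.50 (adjusted p = 0.0250) after hepatectomy. The depletion call was lost in 5 of 20 alternatives, among them without depleted replicate 3 (1.66, adjusted p = 0.0711) and without control replicate 6 and depleted replicate 4 together (1.33, adjusted p = 0.0802). The hepatectomy call was lost in 7 of 17, also without control replicate 6, and without hepatectomy replicate 2 the value was 1.07 (adjusted p = 0.256).

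Junb (chr8:84976909-84978748, minus strand) encodes the JUN family member known to restrain some actions of JUN, and it was the most abundant of the 10 per length in every group. Controls ran from 14.7 through a median of 24.3 to 38.8 CPM. Depleted livers held 43.0, 21.8, 51.8 and 39.3 CPM, and hepatectomised livers 69.6, 135 and 141 CPM. All 3 hepatectomised livers were above all 10 others, whereas depleted replicate 2 lay within the controls. Junb rose by 2.23 ± 0.31 (adjusted p = 0.00205), a 4.68-fold rise, after hepatectomy and kept this call under every alternative. With depletion it did not pass the test (0.79 ± 0.30, adjusted p = 0.0605). It did pass in 6 of 20 alternatives, at 0.80 to 1.02, among them DESeq2 (adjusted p = 0.0344), the compared groups alone (adjusted p = 0.00963), the female livers alone, 3 against 3 (adjusted p = 0.0442), and without depleted replicate 2 (adjusted p = 0.0303).

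Atf3 encodes a CREB/ATF-family factor induced by many kinds of cell stress, and its counted exons span chr1:191170296-191218039 on the minus strand, around the RefSeq start shown above. Controls ran from 0.120 through a median of 1.01 to 1.73 CPM. Depleted livers held 5.57, 3.99, 8.66 and 12.7 CPM, and hepatectomised livers 0.970, 6.26 and 4.81 CPM. All 4 depleted livers exceeded all controls by a wide margin, while hepatectomy replicate 1 lay at the control median. Atf3 rose by 2.95 ± 0.60 (adjusted p = 0.00244) with depletion, a 7.74-fold rise that was called under every alternative. After hepatectomy the value was 2.17 ± 0.65 and did not pass (adjusted p = 0.0590). It passed in 2 of 17 alternatives, with DESeq2 (2.18, adjusted p = 0.00847) and without hepatectomy replicate 1 (2.58, adjusted p = 0.0306), and was 1.43 (adjusted p = 0.301) without hepatectomy replicate 2.

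Egr1 (chr18:34859823-34864984, plus strand) encodes a zinc finger factor at the end of MAP kinase signalling. Its level in controls was 4.59 CPM at the lowest, 12.3 at the median and 31.6 at the highest. Depleted livers held 56.9, 34.8, 43.9 and 30.2 CPM, and hepatectomised livers 102, 45.1 and 158 CPM. Control replicate 2, at 31.6 CPM, reached past depleted replicate 4, while every hepatectomised liver was above every control. Egr1 rose by 1.54 ± 0.52 (adjusted p = 0.0385) with depletion and by 2.86 ± 0.54 (adjusted p = 0.00924), or 7.27-fold, after hepatectomy. The depletion call was lost in 10 of 20 alternatives, without control replicate 6 or depleted replicate 3 among them, and of the fits that left out 1 liver, the hepatectomy call was lost in that without hepatectomy replicate 3 (2.33, adjusted p = 0.0617). A block on the replicate number also ended the hepatectomy call (2.32, adjusted p = 0.0775). Without control replicate 2 the hepatectomy value was 3.46.

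Klf6 (chr13:5861489-5870393, plus strand) encodes a Krüppel-like zinc finger factor that is expressed by many liver cell types and responds to injury. Controls ran from 6.48 through a median of 16.4 to 20.9 CPM. Depleted livers held 56.1, 42.6, 64.9 and 45.6 CPM, and hepatectomised livers 21.2, 53.5 and 29.5 CPM. The depleted livers lay well apart from the controls, and the lowest hepatectomised liver lay just above the highest control. Klf6 rose by 1.84 ± 0.32 (adjusted p = 0.000893) with depletion, a 3.58-fold rise that was called under every alternative. After hepatectomy it rose by 1.31 ± 0.36 (adjusted p = 0.0422), a call lost in 9 of 17 alternatives, also without control replicate 6, with 0.82 (adjusted p = 0.220) without hepatectomy replicate 2.

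Myc (chr15:61985341-61990374, plus strand) encodes the growth-driving partner of MAX. Controls ran from 1.65 through a median of 2.58 to 8.87 CPM, the highest in replicate 2. Depleted livers held 12.4, 7.91, 18.0 and 11 CPM, and hepatectomised livers 3.88, 13.5 and 6.31 CPM. Control replicate 2 exceeded depleted replicate 2 and hepatectomy replicates 1 and 3, and the other 5 controls were below every depleted and every hepatectomised liver. Myc rose by 2.01 ± 0.44 (adjusted p = 0.00383), or 4.03-fold, with depletion and was called under every alternative. At 72 h after hepatectomy the value was 1.10 ± 0.47 and did not pass (adjusted p = 0.171), except without control replicate 2 (1.62, adjusted p = 0.0398), and it was 0.68 (adjusted p = 0.549) without hepatectomy replicate 2.

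Ier3 (chr17:35821684-35822923, plus strand) encodes a short-lived regulator of survival signalling that, unlike the factors above, does not bind DNA. Controls ran from 0.272 through a median of 0.594 to 0.866 CPM. Depleted livers held 3.26, 2.84, 4.03 and 7.57 CPM, and hepatectomised livers 1.06, 6.51 and 7.23 CPM. Neither group overlapped the controls, although hepatectomy replicate 1 was only just above them. Ier3 rose by 2.81 ± 0.50 (adjusted p = 0.000952), or 7.01-fold, with depletion and by 3.12 ± 0.53 (adjusted p = 0.00462), or 8.69-fold, after hepatectomy. Both calls were kept in each fit that left out 1 liver, while a block on the replicate number ended the hepatectomy call (3.28, adjusted p = 0.0516).

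Ier2 (chr8:84661331-84662852, minus strand) encodes a nuclear protein of the early response with a less well understood role, and it moved least. Controls ran from 10.6 through a median of 15.9 to 20.8 CPM. Depleted livers held 22.6, 23.3, 24.3 and 26.3 CPM, a narrow band above all controls, and hepatectomised livers 26.2, 15.3 and 27.9 CPM. Hepatectomy replicate 2, which had the highest Jun, Klf6, Myc and Atf3 of its group, had the lowest Ier2. Ier2 rose by 0.58 ± 0.21 (adjusted p = 0.0447) with depletion, a call lost in 10 of 20 alternatives, without control replicate 6 or depleted replicate 4 among them. After hepatectomy the value was 0.49 ± 0.22 and did not pass (adjusted p = 0.191).

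**Figure D2:**
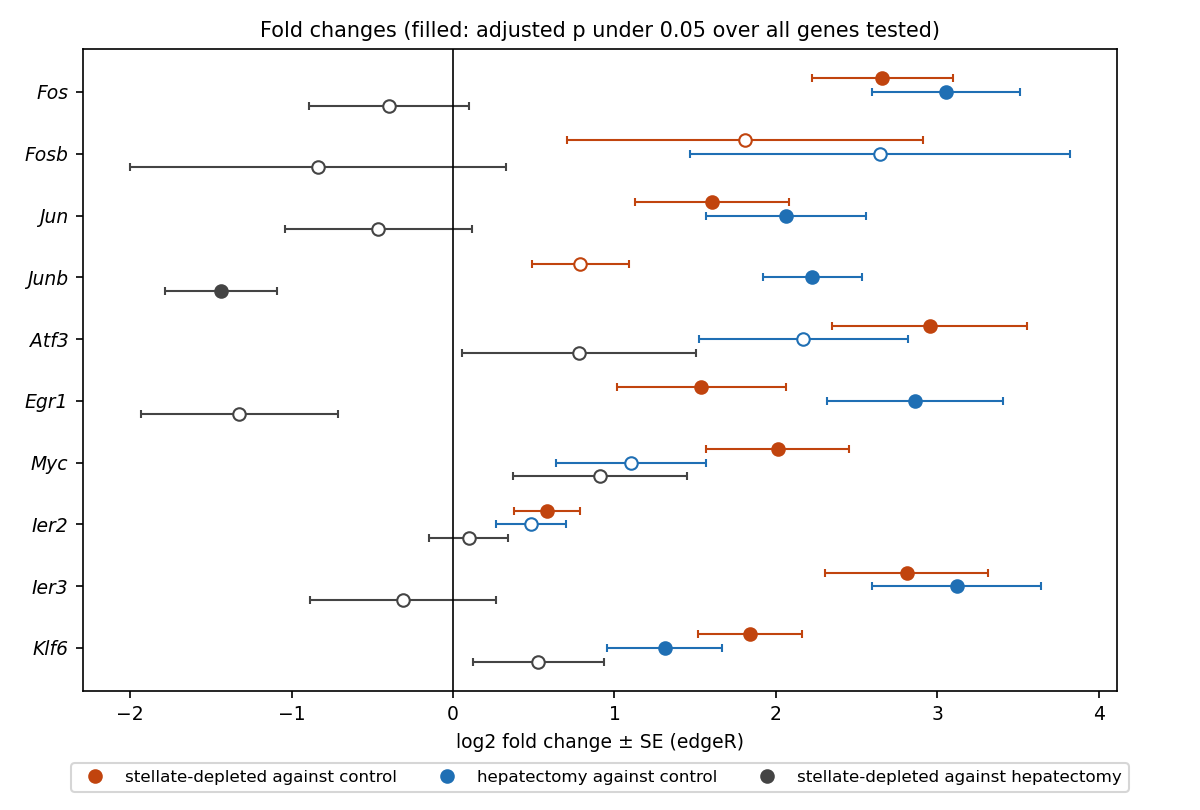
Log2 fold change ± SE of each gene in the 3 group comparisons, with filled points for an adjusted p under 0.05 over all tested genes. Every value against control is above 0, and Junb has the only filled point between depleted and hepatectomised livers.

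Counted without a model, 5 genes (Atf3, Fos, Ier2, Ier3 and Klf6) had depleted livers all above the controls, where 16.5% of all tested genes did (28.4% in either direction). After hepatectomy, 5 genes (Egr1, Fos, Ier3, Junb and Klf6) had no overlap, where 7.41% of all genes did (13.7% in either direction). Among the female livers alone, 3 depleted against 3 control, 9 of the 9 genes tested rose, Fosb having too few reads there, where 13.6% of all genes tested did. Leaving out control replicate 6 and depleted replicate 4 together left 6 of the 10 called with depletion, beside 34.5% of all genes. Without depleted replicate 3, the only male depleted liver, 5 of the 10 were called (Fos, Klf6, Ier3, Atf3 and Myc), beside 21.6% of all genes. After hepatectomy, 4 of the 10 were called without hepatectomy replicate 2, beside 3.43% of all genes. Without hepatectomy replicate 3 the calls were 3 of the 10, Fos, Junb and Ier3, beside 6.82% of all genes.

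A direct comparison set the depleted livers against the hepatectomised ones. Junb was the only call among the 10, lower in depleted livers by 1.44 on the log2 scale (-1.44 ± 0.35, adjusted p = 0.0109), in a comparison where 23.4% of all genes were called and 10.1% of all genes were called lower. The 4 depleted livers did not overlap the 3 hepatectomised livers for Junb, as was so for 34.0% of all genes in either direction and 15.9% in the direction of Junb. Without hepatectomy replicate 3 the Junb difference was -0.80 and the call was lost (adjusted p = 0.159), as it was with a block on the replicate number. Egr1 stood at -1.32 ± 0.61 (adjusted p = 0.140), Myc at 0.91 ± 0.54 (adjusted p = 0.250) and Atf3 at 0.78 ± 0.72 (adjusted p = 0.472). Junb and Egr1 were thus lower and Myc and Atf3 higher in depleted than in hepatectomised livers on average, and Egr1, Myc and Atf3 did not pass the test. Differences for the other 6 genes lay between -0.84 (Fosb) and 0.53 (Klf6) and did not pass.

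Levels were compared between genes only per length (CPM per kb of counted exon). In controls Junb (13.8 CPM per kb on average) and Ier2 (10.8) led, above Jun (3.46), Klf6 (3.43) and Egr1 (3.10), which overlapped each other. The lowest Ier2 value, 6.98, was above every Jun and Klf6 value but just below the highest of Egr1, 7.05. Myc (1.26), Ier3 (0.518), Atf3 (0.450) and Fos (0.274) followed, each overlapping its neighbour, and Fosb (0.0291) lay below Fos without overlap, though its highest value, 0.0561, just passed the lowest of Atf3, 0.0557. In depleted livers the order was Junb (21.2), Ier2 (15.8), Klf6 (12.4), Egr1 (9.24), Jun (8.76), Myc (4.46), Ier3 (3.91), Atf3 (3.59), Fos (1.83) and Fosb (0.127), and of the gaps between neighbours only that above Fosb was free of overlap. After hepatectomy Junb (62.7) lay above the range of Egr1 (22.6), with Jun (16.0), Ier2 (15.2), Klf6 (8.23), Ier3 (4.36), Myc (2.85), Fos (2.30), Atf3 (1.86) and Fosb (0.250) below it, all overlapping their neighbours.

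The make-up of the JUN family was described for each group. The summed level of Jun, Junb and Jund per length was 19.0 to 41.7 CPM per kb for controls, 26.4 to 63.8 for depleted and 53.6 to 133 for hepatectomised livers. Junb held 46.8% ± 5.6 of this sum in controls (SD, n = 6), 47.6% ± 8.8 in depleted livers (n = 4) and 65.0% ± 8.4 after hepatectomy (n = 3). The Jun share was 9.58% to 15.1% in controls and 16.3% to 22.4% in depleted livers, with no overlap, while hepatectomised livers held 5.59%, 26.4% and 8.78%. Hepatectomy replicate 2 was thus rich in both Jun and Junb, and replicates 1 and 3 chiefly in Junb. Jund, a family member expressed steadily in many tissues, made up 41.4% on average in controls, 32.8% in depleted livers and 21.4% after hepatectomy. Jund levels were 8.88 to 14.3 CPM per kb for controls, 8.61 to 23.0 for depleted and 12.8 to 24.4 for hepatectomised livers. The lower mean share of Jund thus does not stand for a lower level. These shares were not tested.

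Among the FOS family, Fosl2 and Fos made up most of the transcripts in every liver. The largest shares of the others were those of Fosb in depleted replicate 4 (9.59%) and hepatectomy replicate 3 (9.55%, with 2.60% Fosl1). The sum over Fos, Fosb, Fosl1 and Fosl2 was 0.671 to 1.31 CPM per kb for controls, 3.0 to 4.41 for depleted and 3.54 to 7.31 for hepatectomised livers. Fosl2 held 70.4% on average in controls against 26.5% for Fos. In depleted livers the shares of Fosl2 and Fos were 46.5% and 49.6%, and after hepatectomy 53.3% and 41.8%, where hepatectomy replicate 2 was again apart at 76.2% Fosl2 and 22.7% Fos. Per length, the FOS family sum was far below the JUN family sum in every liver.

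**Figure D3:**
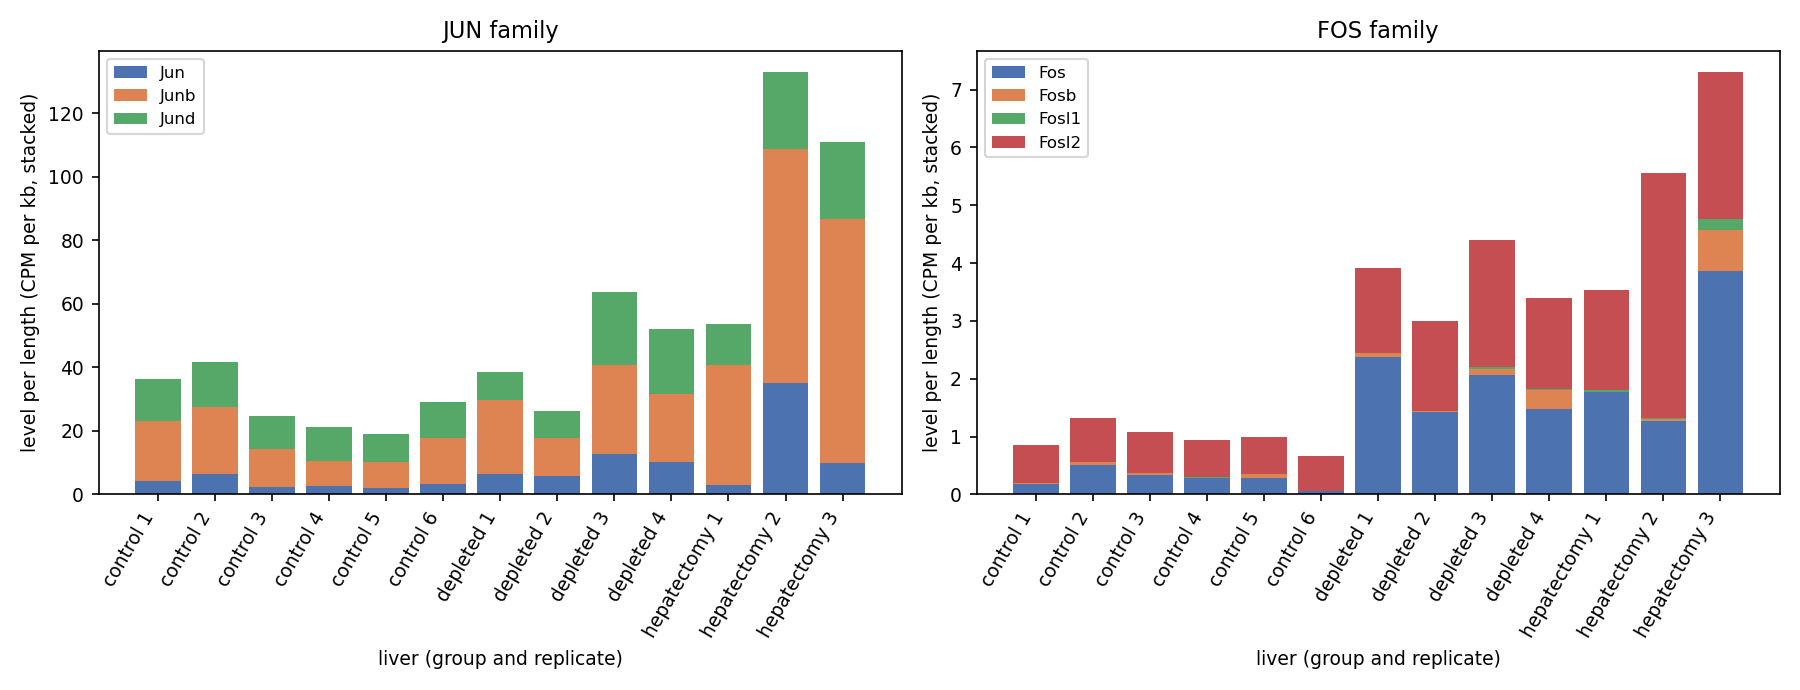
Stacked level per length (CPM per kb) of the JUN family (left) and FOS family (right) in each of the 13 livers. Junb makes up most of the higher JUN family sum after hepatectomy, and Fos and Fosl2 make up most of the FOS family in depleted livers.

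Within groups, 9 of the 10 genes varied more than the median gene, the exception being Ier2. The biological coefficient of variation, the spread between livers of a group beyond counting error, was 23.5% for Ier2, 32.0% for Junb, 35.3% for Klf6 and 45.3% for Fos. It was 46.9% for Myc, 48.9% for Jun, 52.6% for Ier3, 53.4% for Egr1, 63.1% for Atf3 and 112% for Fosb, beside a median of 24.1% over all tested genes. Among 1000 genes of like expression, the 10 stood between the percentiles 74.8 (Ier2) and 99.2 (Fosb), with Egr1 at 97.8 and Jun at 96.1. Relative to the control mean on the log2 scale, control replicate 6 had 1 of 10 genes above that mean and control replicate 2 had 9 of 10. Depleted replicates 1, 3 and 4 had all 10 above it and replicate 2 had 8, while hepatectomy replicates 1, 2 and 3 had 8, 9 and 10.

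**Figure D4:**
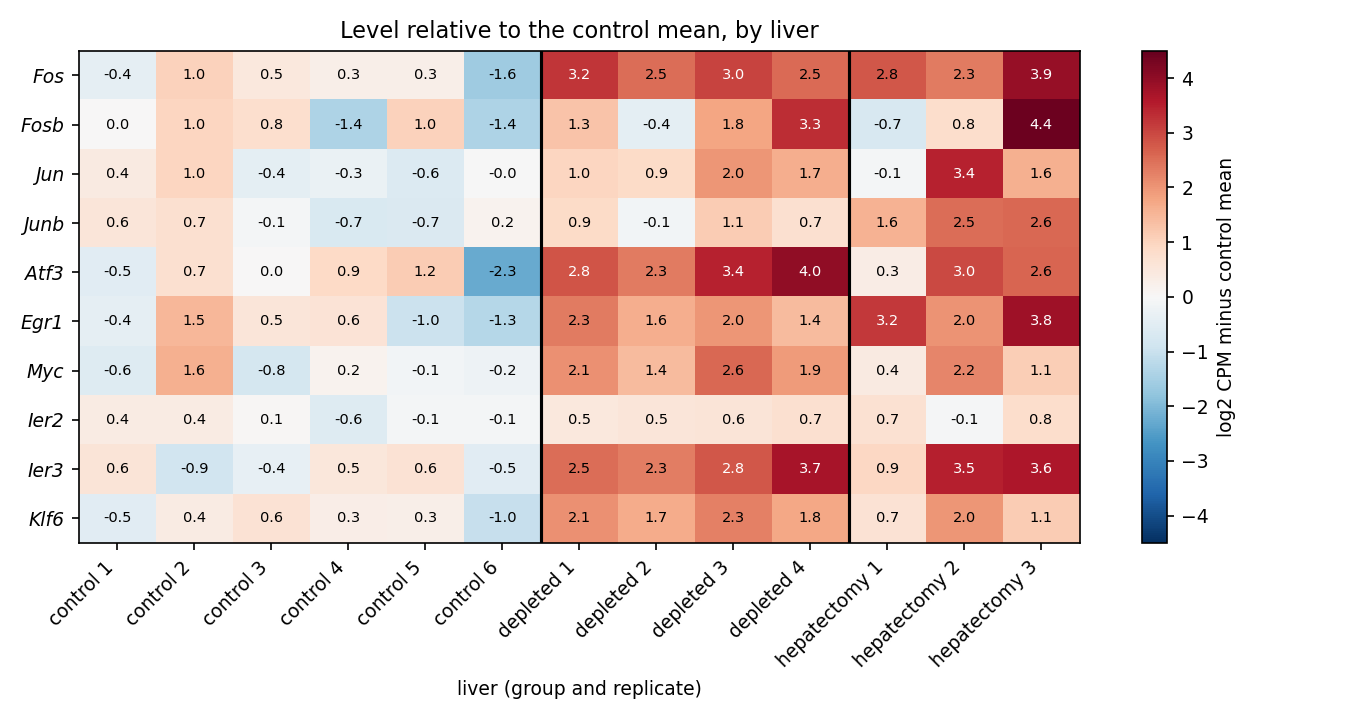
Log2 CPM of each gene in each liver minus the mean of the 6 controls, with red for higher and blue for lower. Control replicate 6 has the lowest control value of Fos, Atf3, Egr1 and Klf6, and hepatectomy replicate 1 is raised for Egr1, Fos and Junb but not for Jun or Atf3.

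The genes did not vary as 1 block from liver to liver. Over the deviations of log2 CPM from the group means in the 13 livers, 37 of the 45 gene pairs had a positive Pearson r, with a median of 0.295. Differences between the sexes were not removed from these deviations, and the share of positive pairs over all genes was not computed. The closest pairs were Fos with Egr1 (0.838), Atf3 with Klf6 (0.793), Jun with Myc (0.749) and Jun with Junb (0.71), and the lowest was Ier2 with Klf6 (-0.390). Within the 6 controls alone, Fos was related to each of the other 9 genes, and none passed adjustment over these 9 exact permutation tests. The closest was Klf6, with r = 0.93 (two-sided exact permutation p = 0.0111, adjusted p = 0.100) and a Spearman rho of 0.886 (exact permutation p = 0.0333, adjusted p = 0.300). Without control replicates 6 and 2, the livers farthest from the Fos median, r was 0.99 for Klf6 and lower than before for every other gene. It went from 0.80 to 0.39 for Egr1, from 0.89 to 0.61 for Atf3 and from 0.67 to 0.15 for Fosb. Leaving out these livers also narrows the range of Fos and leaves 4 livers, so the drop cannot show what a relation rests on.

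The genes whose deviations most resembled those of 4 members were taken from 11185 well-expressed genes, as a description over 13 livers that share depth and cell make-up. For Fos they were Timp2 (r = 0.95), Sspn (0.94), Wls (0.94) and Zfp97 (0.94). For Jun they were Myd88 (0.92), Tnip2 (0.91), Fosl2 (0.90) and Socs3 (0.90). Hcar2 (0.89), Lamc1 (0.88), Spata5 (0.88) and Pmepa1 (0.88) were nearest to Atf3, and Cbfb (0.85), Ccr1 (0.84), Ubd (0.82) and Irf2bpl (0.81) to Myc. No gene appeared among the 4 nearest of more than 1 of these members. With 4 of 11185 taken for each, this says little about whether the members vary together.

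Sex was compared within the controls, 3 males against 3 females. Jun was 13.5, 20.0 and 10.2 CPM in males and 7.56, 8.36 and 6.65 in females, and Junb was 34.9, 38.8 and 26.6 in males and 22, 14.7 and 14.9 in females. For these 2 of the 9 genes tested every male was above every female, as for 10.4% of all tested genes (no overlap in either direction: 20.8%). None of the 9 was called by edgeR, where 0.738% of 13005 genes were. The log2 differences were 0.95 ± 0.26 for Jun (adjusted p = 0.200) and 0.96 ± 0.21 for Junb (adjusted p = 0.107), and these 2 had an unadjusted p under 0.05. DESeq2 called 2 of the 10 genes it tested, beside 2.05% of the 22048 genes, and limma-voom called 0 of the 9. Sex was held in the model for every comparison of groups.

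Calls were also counted in 11 lists of regulators, relatives and targets of the early response. For these lists and the cell type markers below, the shares of all tested genes are the measure. With depletion 18.9% of all genes were called higher and 15.0% lower, and after hepatectomy 6.06% and 2.36%. Of 11 other AP-1 and partner bZIP genes tested, 5 rose and 1 fell with depletion (list median 0.48), and 2 rose after hepatectomy (median 0.37). Batf2 (3.94 ± 0.39, adjusted p = 1.8e-05) and Batf3 (3.24 ± 0.52, adjusted p = 0.000473), bZIP factors of immune cells, rose with depletion. Jdp2, a repressor that pairs with JUN, rose there by 2.58 ± 0.45 (adjusted p = 0.000762). Fosl2 rose in both comparisons, by 1.40 ± 0.20 (adjusted p = 0.000232) and 2.05 ± 0.22 (adjusted p = 0.000277). Maff, a small MAF protein, rose after hepatectomy by 1.62 ± 0.33 (adjusted p = 0.0126).

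Serum response factor, its partners and the CREB factors switch on genes such as Fos and Egr1. Of these 8 genes, 1 rose with depletion, where 18.9% of all genes did: Mrtfa (1.10 ± 0.13, adjusted p = 6.8e-05), an actin-sensing coactivator. With library size alone 3 of the 8 rose there, and with DESeq2 or without control replicate 6 and depleted replicate 4 together 2 did. After hepatectomy, where 6.06% of all genes rose, 2 of the 8 did, Elk1 (0.79 ± 0.17, adjusted p = 0.0158), a ternary complex factor, and Crem (0.66 ± 0.12, adjusted p = 0.00529), a cAMP-responsive factor, and 1 rose without hepatectomy replicate 2 or with library size alone as the scaling. Of 7 other EGR and NR4A genes and EGR corepressors, 4 rose with depletion and 1 after hepatectomy, Nab2 (0.70 ± 0.18, adjusted p = 0.0310), a corepressor of EGR1. The 4 were Egr2, Egr3, Nr4a2 and Nr4a3, named after their values were seen, with means of at most 2.33 CPM in depleted livers. Of 13 other KLF genes, 4 rose with depletion, among them Klf2 (1.56 ± 0.26, adjusted p = 0.000535), the flow-sensing factor of endothelium, and Klf4 (1.03 ± 0.27, adjusted p = 0.0108). Without depleted replicate 3, 1 of the 7 and 1 of the 13 were called.

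Companion genes of the early response gave calls in both comparisons. Of 21 other early response genes, 10 rose and 2 fell with depletion (median 0.67) and 10 rose after hepatectomy (median 0.97). Gadd45g, a stress-induced growth arrest gene, rose by 4.01 ± 0.74 (adjusted p = 0.00128) and 5.18 ± 0.75 (adjusted p = 0.00289), from 2.83 ± 3.61 CPM in controls (SD, n = 6) to 38.5 ± 22.1 (n = 4) and 98.2 ± 47.2 (n = 3). Btg2, an antiproliferative gene, rose by 2.20 ± 0.45 (adjusted p = 0.00262) and 3.10 ± 0.49 (adjusted p = 0.00407). Cebpb, a bZIP factor of the acute phase and of regeneration, rose by 2.18 ± 0.24 (adjusted p = 0.000407) after hepatectomy. Ccn2, a matricellular gene also known as connective tissue growth factor, rose by 2.47 ± 0.40 (adjusted p = 0.000511) with depletion. Without hepatectomy replicate 2, 6 of the 21 rose and 1 fell after hepatectomy. The 2 that fell with depletion, Ccn1 (-1.81 ± 0.34, adjusted p = 0.00124) and Plk2 (-1.10 ± 0.26, adjusted p = 0.00542), were named after their values were seen.

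Of 16 feedback inhibitors of the early response, 8 rose with depletion (median 0.65) and 6 after hepatectomy (median 0.63). Tnfaip3, which ends NF-κB signalling, rose by 3.05 ± 0.19 (adjusted p = 6.3e-07) and 1.36 ± 0.20 (adjusted p = 0.00233). Dusp1, a phosphatase of MAP kinases, rose by 2.54 ± 0.36 (adjusted p = 0.000235) and 1.26 ± 0.35 (adjusted p = 0.0466). Socs3, which ends STAT3 signalling, rose by 2.35 ± 0.43 (adjusted p = 0.00119) and 4.29 ± 0.45 (adjusted p = 0.000344). Levels of Socs3 were 6.13 ± 2.82 CPM in controls (SD, n = 6), 26.6 ± 10.1 in depleted livers (n = 4) and 119 ± 81.2 after hepatectomy (n = 3). Without depleted replicate 3, 4 of the 16 rose and 1 fell with depletion.

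The network and the targets of MYC were counted apart. Of 11 genes of the MYC network, 6 rose and 1 fell with depletion, among them Mlxip (1.68 ± 0.29, adjusted p = 0.000851), a partner of MLX, Mxd1 (1.11 ± 0.15, adjusted p = 0.000113), an antagonist of MYC, and Max (0.87 ± 0.16, adjusted p = 0.00132). After hepatectomy 1 of these 11 rose, Mxd3 (3.12 ± 0.68, adjusted p = 0.0156), an antagonist of MYC named after its values were seen, and 0 were called without hepatectomy replicate 2. Of 16 MYC target genes of ribosome making, polyamine and nucleotide synthesis, glycolysis and the cell cycle, none was called with depletion by edgeR, 2 had an unadjusted p under 0.05, and DESeq2 and limma-voom called 0 each. With library size alone 1 was called higher, and without control replicate 6 and depleted replicate 4 together 1 was called lower. The list median was 0.07. After hepatectomy 1 of the 16 was called, Ldha (lactate dehydrogenase), by 1.75 ± 0.24 (adjusted p = 0.00154).

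Of 11 AP-1 target genes, 7 rose with depletion (median 2.11) and 2 after hepatectomy (median 0.86), 1 of them without hepatectomy replicate 2. With depletion these included Mmp9, a gelatinase that neutrophils also carry, at 4.54 ± 0.65 (adjusted p = 0.000235), and the urokinase receptor Plaur at 3.20 ± 0.37 (adjusted p = 4.3e-05). Il1b, a cytokine of myeloid cells, rose there by 2.62 ± 0.46 (adjusted p = 0.000819). Timp1, an inhibitor of metalloproteinases, rose after hepatectomy by 5.49 ± 1.01 (adjusted p = 0.00812), to 9.25 ± 6.91 CPM (SD, n = 3) from 0.190 ± 0.253 in controls (n = 6).

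Other stress programmes were counted in the same way. Of 10 heat shock genes, 1 fell with depletion, the mitochondrial chaperonin Hspd1 (-0.51 ± 0.14, adjusted p = 0.0148), and 1 rose after hepatectomy, the co-chaperone Bag3 (0.91 ± 0.23, adjusted p = 0.0284). The heat shock medians were -0.23 and 0.78. After hepatectomy 6 of the 10 were higher at an unadjusted p under 0.05, DESeq2 called 4 and limma-voom 2, and none was called by edgeR without hepatectomy replicate 2. Of 7 integrated stress response genes, the list that shares Atf3 as a textbook target, 1 rose and 1 fell with depletion: Sesn2, a stress sensor, at 0.76 ± 0.19 (adjusted p = 0.00826) and the pseudokinase Trib3 at -1.73 ± 0.45 (adjusted p = 0.00999). None of the heat shock and integrated stress response genes was called with depletion by edgeR without depleted replicate 3. After hepatectomy Chac1, a glutathione-degrading enzyme, rose by 2.90 ± 0.48 (adjusted p = 0.00448), the only call of the 7. With library size alone as the scaling, hepatectomy calls were 2 higher and 2 lower among the 11 bZIP genes, 0 and 2 among the KLF genes, 10 and 2 among the early response genes, 1 and 2 in the MYC network, and 0 among the heat shock genes and among the EGR and NR4A genes.

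**Figure D5:**
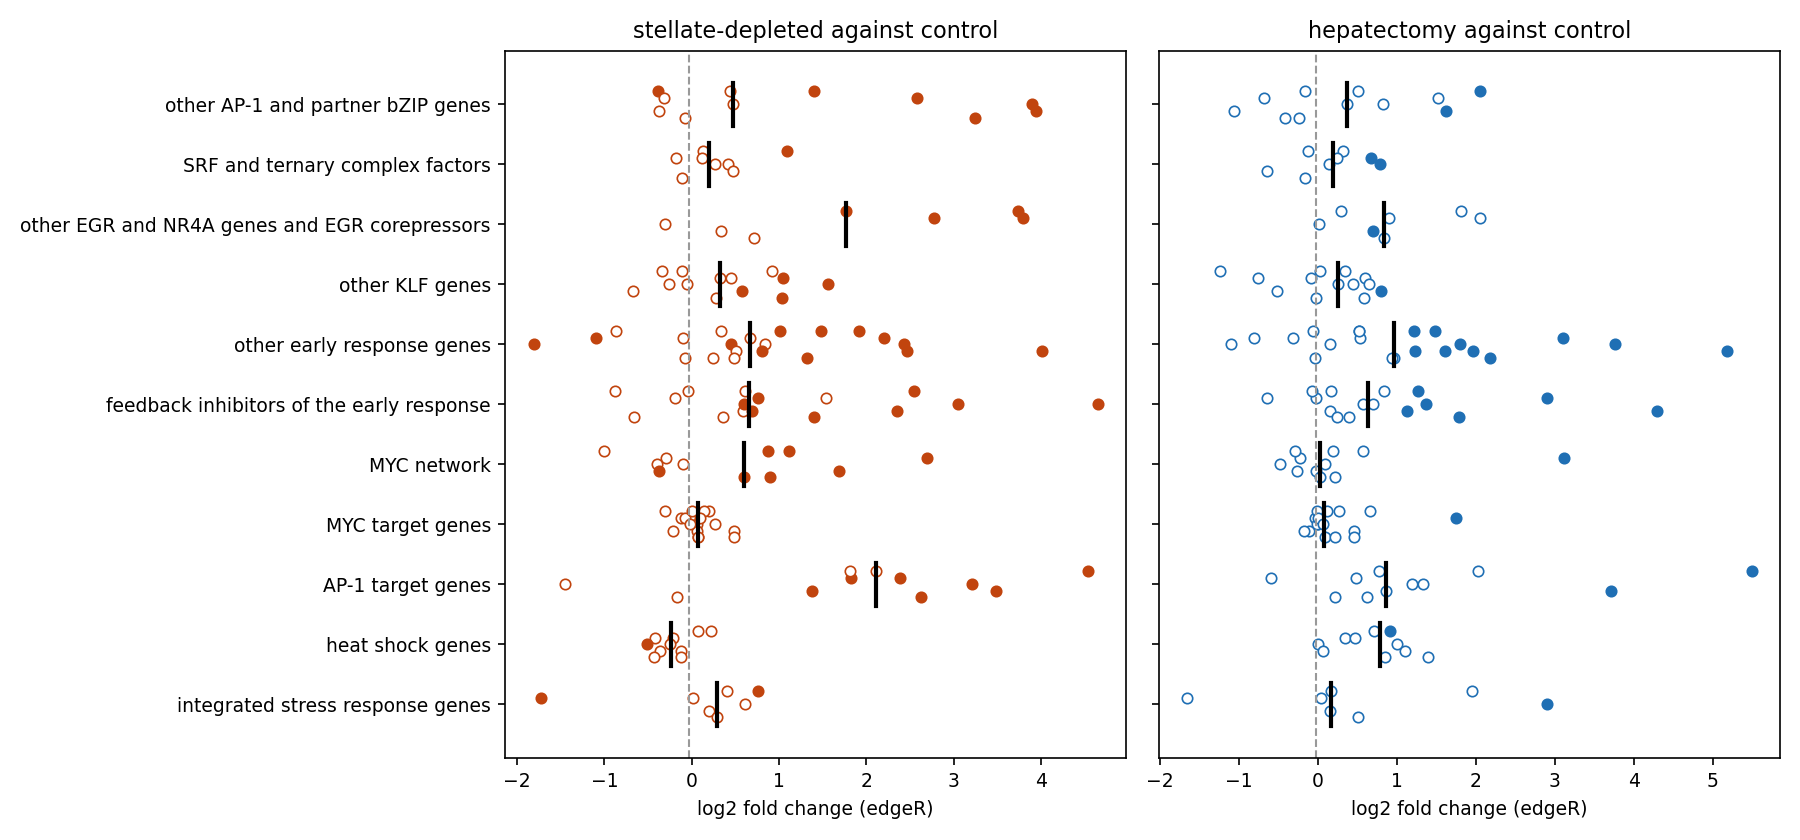
Log2 fold change of every tested gene of the 11 lists (the 10 members are in none of them) in the 2 comparisons with control, with filled points for an adjusted p under 0.05, a bar at each list's median and a dashed line at the median of all genes. The highest list median is that of AP-1 target genes with depletion, at 2.11, and the medians of MYC target genes are 0.07 in both panels.

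Markers of other cell types moved with the depletion comparison. All 11 tested neutrophil markers, 12 of 12 T and NK cell markers, 5 of 5 B cell markers and 9 of 12 macrophage and monocyte markers rose, while 12 of 12 stellate cell markers fell and 1 of 10 endothelial markers rose. Summed CPM of T and NK markers was 3.91 to 7.77 in controls and 78.1 to 185 in depleted livers, and that of macrophages and monocytes 91.3 to 683 and 1454 to 2948. The neutrophil marker Ly6g was at 0 in all controls. The part of these cells in the higher levels of Fos, Atf3, Ier3, Klf6 and Myc with depletion was not tested.

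After hepatectomy the immune markers moved less. T and NK sums were 4.63 to 7.20 CPM, macrophage and monocyte sums 129 to 928 and B cell sums 0.954 to 5.29, with 0 of 12, 1 of 12 and 0 of 5 markers higher, 8 of 11 neutrophil markers higher and 1 B cell marker lower. For the T and NK list, edgeR gave 0 genes at an unadjusted p under 0.05, and DESeq2 and limma-voom called 0. Fos, Ier3, Egr1, Junb and, by a narrow margin, Klf6 were above all controls in these same livers, and hepatectomy replicate 2, with the lowest macrophage sum of its group, had the group's lowest Fos, Egr1 and Ier2 and its highest Jun, Klf6, Myc and Atf3. The neutrophil sum of 20.4 to 35.5 CPM, above the 5.12 of the highest control, was present in all 3, and its part in the result was not tested. Of 4 cholangiocyte markers tested, 2 rose after hepatectomy, with sums of 12.4 to 18.3 CPM against 4.70 to 6.41 in controls. Of 9 hepatocyte markers, 2 rose (list median 0.62), with sums of 149994 to 205261 CPM against 83127 to 157288 in controls, and their part in the result was not tested.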

How the data were processed

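Total RNA of 13 whole livers was taken up in TRIzol and made into stranded TruSeq mRNA libraries, per the labels' protocols. The authors deposited whole-number counts of reads per gene for the 13 livers in a table of 22048 genes. Per the submitters' processing notes, STAR 2.7.1a, SAMtools 1.15.1, featureCounts 1.6.4 and the mm10 build were used, and their settings for strand and multi-mapped reads are not given in the sources used here. Symbols came from GENCODE release M21, which held 21741 of the identifiers and not the other 307. For 99.9% of these, exon coordinates in the deposited table lay on that gene in GRCm38.

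The test was edgeR's (4.0.16, in R 4.3.3) quasi-likelihood test of these counts (TMM scaling, filterByExpr on the groups, group and sex in the model, all 13 livers in the fit, robust dispersion), two-sided, with Benjamini-Hochberg adjustment over the 13831 genes kept and a threshold of 0.05. Male and female controls were fitted on the 6 controls alone. Log2 CPM used a prior count of 2, and SE is the log2 fold change over the root of F. Floors of 3 reads cover counting error only. The 10 members, the lists, the markers and the rules for naming were chosen with earlier results of these data known. Named list genes are, per list and comparison with control, at most 4 called genes of the largest change with a mean log2 CPM of at least 1. A gene that this rule also takes is not reported here. Cebpd and Tf, on the lists, are not analysed here. The labels do not say whether the livers came from separate animals, so each p-value sets a difference against the spread between these livers only. Within groups, the lowest median chi-square per gene of a pair of livers was 4.60 among controls, 6.30 among depleted and 13.37 among hepatectomised livers. Pairs thus differed beyond counting error, and every liver was counted as a replicate of its own. These values cannot show that the livers came from separate animals. The edgeR test was first tried on simulated counts. Alternatives were RLE scaling, library size alone, no low-count filter, DESeq2 1.42.0, limma-voom (limma 3.58.1), no sex term, the compared groups alone, female livers alone, a replicate block and leaving out each liver. Leaving out control replicate 6 and depleted replicate 4 together was chosen after seeing the data.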

Additional observations from a re-analysis of the deposited data

How the results depend on the processing

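Under all alternatives, the 198 recomputed values of the 10 genes with depletion kept their direction (25 lost a call, 6 gained one), as did the 169 after hepatectomy (19 lost, 3 gained). With a block on the replicate number, 5 of the 10 were called with depletion (and 3887 of all genes), 2 after hepatectomy (and 632 of all genes; Egr1 at 2.32, adjusted p = 0.0775, and Ier3 at 3.28, adjusted p = 0.0516, were among the calls lost) and 0 between depleted and hepatectomised livers (and 3170 of all genes). The numbers were not taken to pair livers, as the labels do not say that they do. With sex removed, same-numbered hepatectomised and control livers correlated at 0.0836, -0.191 and -0.0480 in their deviations, and same-numbered depleted and control livers at 0.0673, -0.0981, 0.416 and 0.0811. Same-numbered depleted and hepatectomised livers correlated at 0.162, 0.0409 and 0.272. Differently numbered livers of different groups correlated at -0.484 to 0.360, below the highest same-numbered value. These values cannot settle whether a number marks a shared day or batch, which was not tested. Leaving out 1 liver at a time gave 5 to 9 called members with depletion (2960 to 4817 of all genes, 4692 in full), 3 to 7 after hepatectomy (483 to 1331, 1164 in full) and 0 to 1 between the 2 (1709 to 3850, 3236 in full). DESeq2 called 2 members between the sexes and 1926 genes after hepatectomy. Library size alone called 2192 genes after hepatectomy, female livers alone 2695 with depletion, and the compared groups alone 2105 between depleted and hepatectomised livers. Uncalled differences between depleted and hepatectomised livers changed sign for Ier3 (0.040, library size alone), Jun (0.0029, limma-voom) and Ier2 (-0.030, compared groups alone). Without hepatectomy replicate 2 they did so for Jun (0.40), Ier2 (-0.12) and Ier3 (0.17), and without hepatectomy replicate 3 for Fosb (1.91) and Fos (0.21). Leaving out 1 liver at a time, these ran from -0.90 to 0.40 for Jun, -0.12 to 0.42 for Ier2, -0.72 to 0.17 for Ier3, -1.60 to 1.91 for Fosb and -0.72 to 0.21 for Fos. The cause was not tested. Fosb had only 0 to 9 reads in controls and the highest biological coefficient of variation of the 10 genes, 112%.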
